A study of Mus musculus with 12 samples.

Results

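Metallothioneins are represented here by the 4 probe sets whose single gene symbol in the array annotation is Mt1, Mt2 or Mt3, out of 22690 probe sets on the array (a probe set is a group of short probes read as 1 value), so 3 of the 12393 genes with a probe set of their own. Mt2 (1428942_at) and Mt3 (1420575_at) had 1 probe set each and Mt1 had a bright one (1422557_s_at) and a dim one (1451612_at). Bright Mt1, Mt2 and Mt3 stood at percentile 95.6 or above on every array, and the dim Mt1 set between percentiles 32.4 and 64.4. All 4 passed the filter on low values and were among the 16555 probe sets tested. The cords came from C57BL/6 wild-type females, 10 weeks old, and formed 4 groups of 3 biological replicates: polysome-bound RNA of injured cord, polysome-bound RNA of sham-operated cord, total RNA of injured cord and total RNA of sham-operated cord. Injured mice had a laminectomy and a cut through 80% of the cord, sham mice the laminectomy alone (the sample titles call them naive), and a 2.5 cm length including the site was collected 9 hours after the operation. Polysome-bound RNA, which is mRNA carrying several ribosomes, was collected from a sucrose gradient after an aliquot of the homogenate had been set aside for total RNA. The labels do not say whether a replicate is 1 animal or a pool, so p-values measure the spread between these samples.

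Metallothioneins are small, cysteine-rich proteins that bind zinc and copper and scavenge oxidants. Mt1 and Mt2 are found in most tissues, in the central nervous system chiefly in astrocytes, and are inducible: zinc acts through the transcription factor MTF1 at metal response elements, and glucocorticoids and IL-6 family cytokines (through STAT3) also raise them. Mt3 was first described as a neuronal growth inhibitory factor, is found mainly in brain and spinal cord, and is known to respond weakly or not at all to most of these inducers.

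The 3 genes lie in tandem on mouse chromosome 8 (GRCm38.p6, plus strand), Mt3 at 94152607 to 94154148, Mt2 at 94172618 to 94173567 and Mt1 at 94178883 to 94180327, where the Mt1 interval includes a predicted transcript that starts upstream. Mt2 and Mt1 are 5315 bases apart, and Mt3 and Mt2 18469. The RefSeq promoter windows, 250 bases before to 50 after the annotated start, are shown because metal response elements are the feature by which Mt1 and Mt2 are known to sense zinc. Capitals mark the core of that element in the forms TGCACNC and TGCGCNC on either strand; a match on the minus strand is printed as its reverse complement.
Mt1, chr8:94178839-94179138: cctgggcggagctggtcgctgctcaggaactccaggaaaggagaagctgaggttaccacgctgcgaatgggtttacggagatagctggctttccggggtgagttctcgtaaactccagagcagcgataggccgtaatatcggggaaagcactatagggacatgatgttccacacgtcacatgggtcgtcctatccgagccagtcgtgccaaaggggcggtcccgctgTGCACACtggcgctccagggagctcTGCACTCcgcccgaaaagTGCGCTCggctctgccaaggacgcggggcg
Mt2, chr8:94172368-94172667: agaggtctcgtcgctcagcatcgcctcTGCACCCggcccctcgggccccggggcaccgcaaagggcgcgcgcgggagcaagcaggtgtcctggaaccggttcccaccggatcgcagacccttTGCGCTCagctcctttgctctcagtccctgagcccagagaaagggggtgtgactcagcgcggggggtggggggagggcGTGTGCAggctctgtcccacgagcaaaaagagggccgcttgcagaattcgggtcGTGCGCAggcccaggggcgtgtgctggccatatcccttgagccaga
Mt3, chr8:94152357-94152656: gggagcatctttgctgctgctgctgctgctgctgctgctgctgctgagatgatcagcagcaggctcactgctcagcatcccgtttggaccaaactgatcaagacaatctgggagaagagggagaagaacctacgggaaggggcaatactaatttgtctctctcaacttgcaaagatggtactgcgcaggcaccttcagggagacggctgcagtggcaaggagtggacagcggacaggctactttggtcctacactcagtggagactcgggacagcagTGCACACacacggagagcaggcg

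The Mt1 window held 3 cores, the Mt2 window 4 and the Mt3 window 1, and none of them overlapped. Of 32851 mouse windows of the same length, 25.7% held at least 1 core, 1.97% at least 3 and 0.517% at least 4. Mt2 also held 1 antioxidant response element core (TGACNNNGC, present in 12.4% of windows). No window of the 3 held a STAT-type palindrome (TTCNNNGAA, 8.3% of windows) or an E-box (CACGTG, 7.15%). A match is a description of these letters and does not show that a factor binds there. The Mt1 window was placed on a start at 94179089, and bases beyond the 300 of each window were not searched. Elements known from these promoters may lie outside, so a motif absent from a window is not thereby absent from the promoter.

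**Figure D1:**
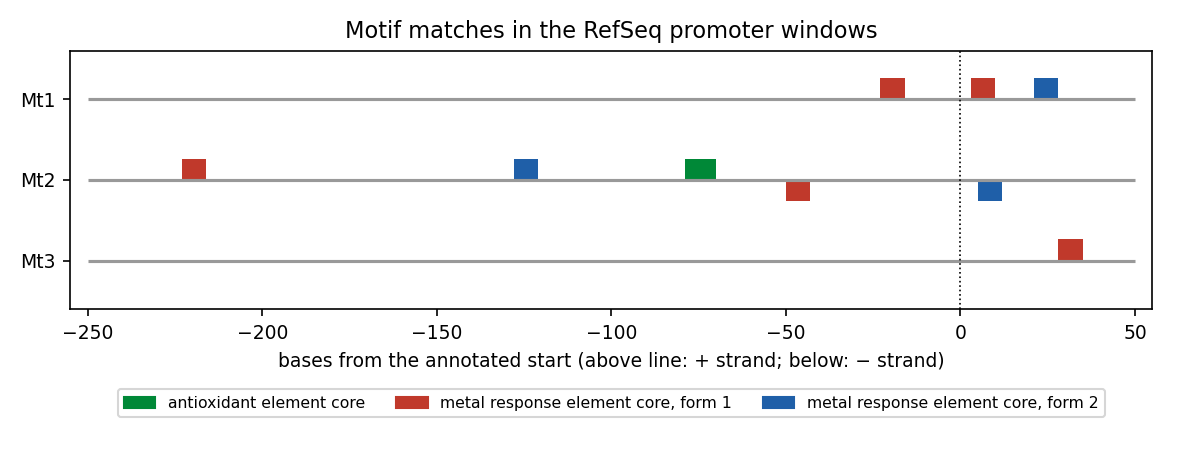
Positions of motif matches in the promoter windows of Mt1, Mt2 and Mt3; the horizontal axis gives bases from the annotated start, and form 1 and form 2 of the metal response element core are TGCACNC and TGCGCNC. Mt1 has 3 cores, Mt2 has 4 and Mt3 has 1.

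Arrays of a group correlated across probe sets at 0.994 to 0.998. As deposited, array medians were 7.12 to 7.24 in injured polysome-bound, 7.24 to 7.26 in sham polysome-bound, 7.76 to 7.79 in injured total and 7.75 to 7.77 in sham total RNA (log2), so every difference between fractions depends on the scaling. Injured polysome replicates 1 and 2 stood apart, with estimated array weights of 0.22 and 0.41 compared with 0.87 to 2.01 elsewhere. The Gapdh 3′ minus 5′ difference, a measure of RNA integrity, also moved with injury: 2.54 to 3.06 in injured against 0.84 to 0.90 in sham polysome-bound RNA, and 1.17 to 1.60 in injured against 0.18 to 0.27 in sham total RNA. Its part in the results that follow was not tested. The tissue label fitted its markers: of the measured genes, 17 of 17 astrocyte, 13 of 14 neuron and 8 of 8 oligodendrocyte markers lay above every control probe set for organisms absent from the sample, on all 3 arrays of each group. Of 10 skeletal muscle markers, 5 did so in each polysome group, 2 in injured total and 3 in sham total RNA. Whether muscle was collected with the cord was not tested.

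Injury raised Mt1 and Mt2 in total RNA. Mt2 rose 3.24-fold and Mt1, by its bright probe set, 2.61-fold, each on all 3 injured arrays. Mt3 was higher by 1.53-fold, a smaller and less certain difference.

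Mt2 read 13.56, 13.59 and 13.57 (log2) in injured total RNA, against 11.98, 11.78 and 11.89 in sham total RNA. The injured arrays lay close together and far above every sham array. The log2 change was 1.69 (SE 0.07, 95% interval 1.54 to 1.85, limma adjusted p = 4.58e-09), and 45 of the 16555 probe sets had a larger rise. The bright Mt1 probe set read 14.06, 14.05 and 14.02 in injured total RNA, against 12.74, 12.49 and 12.75 in sham total RNA. Again all 3 injured arrays were above all 3 sham arrays. Its change was 1.38 (SE 0.09, interval 1.19 to 1.58, limma adjusted p = 1.3e-07), with 85 probe sets above it. These injured values approach the array maxima of 14.48 to 14.65, and whether brightness there understated the difference was not tested. The suffix of this probe set marks probes shared by more than 1 transcript, so related transcripts may add to its signal.

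The dim Mt1 probe set moved the same way in total RNA. It read 8.25, 8.51 and 8.47 in injured total RNA, against 7.53, 7.44 and 7.39 in sham total RNA. The groups did not overlap, and the change was 0.96 (SE 0.07, limma adjusted p = 3.84e-07).

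Mt3 read 12.20, 11.72 and 12.08 in injured total RNA, against 11.41, 11.32 and 11.44 in sham total RNA. The injured arrays were all higher, with a spread of 0.25 (SD) against 0.07 in sham. The change was 0.61 (SE 0.23, interval 0.12 to 1.10, limma adjusted p = 0.0317). It missed the threshold after quantile normalization over 12 arrays (0.34, adjusted p = 0.201) or within each fraction (0.35, adjusted p = 0.179), and without sham total replicate 1, 2 or 3 (0.62, 0.57 and 0.64) or injured total replicate 1 or 3 (0.51 and 0.57), while without injured total replicate 2 it was 0.75 and called.

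All 4 metallothionein probe sets were thus called higher in total RNA, where 37.4% of all probe sets were. The count of 4 carries little by itself at that background, and the sizes are more telling: a log2 rise of 1 or more was reached by 0.985% of probe sets (163), among them the bright Mt1 set and Mt2. The median change was 0.08 over all probe sets and 0.27 over the brightest 10% (1656), where 69.2% were called higher and 3 of the 4 metallothionein sets lie. Injured and sham arrays did not overlap for any of the 4, as for 72.5% of all probe sets.

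**Figure D2:**
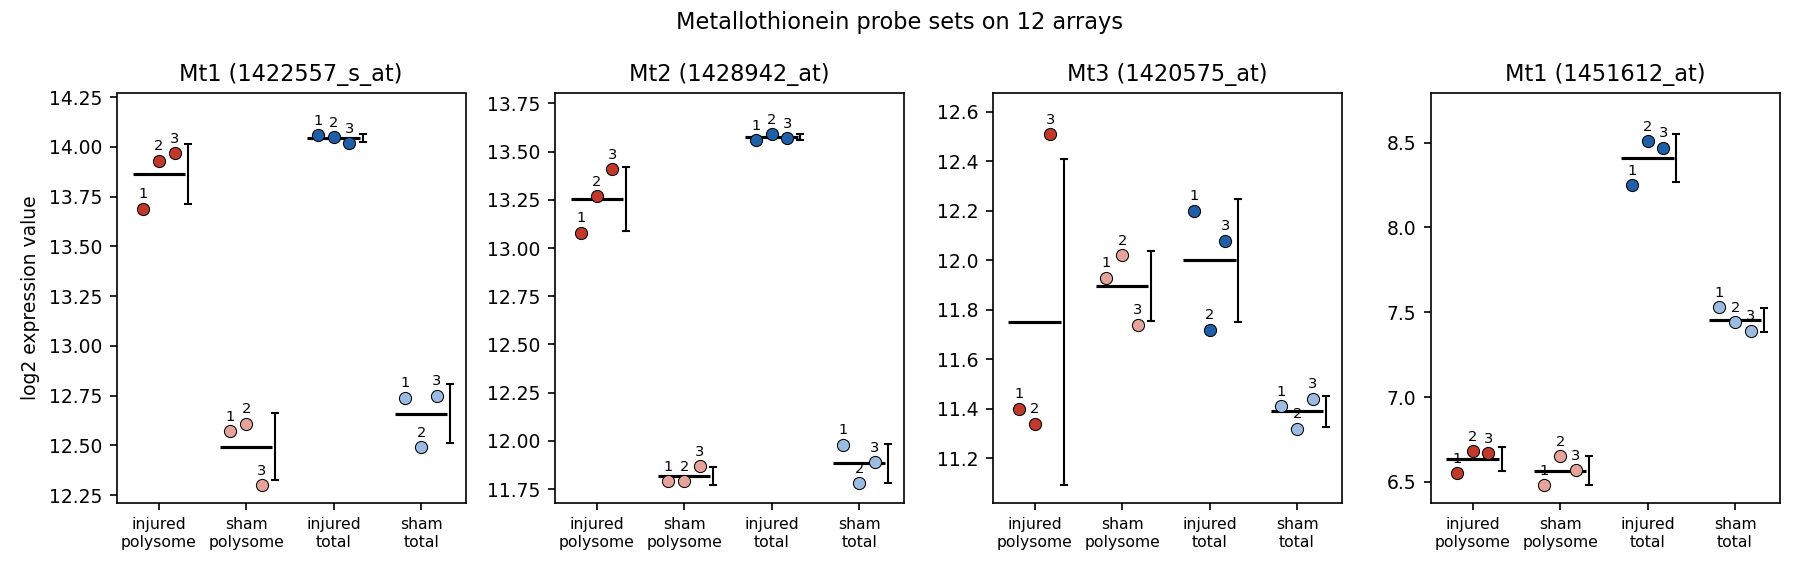
Log2 expression values of the 4 metallothionein probe sets on each of 12 arrays, numbered by replicate, with the group mean (line) and SD (bar, n = 3); each panel has its own vertical axis, which does not start at 0. Injured arrays of Mt2 and bright Mt1 lie above all sham arrays in both fractions, Mt3 splits in injured polysome-bound RNA, and the dim Mt1 set separates injured from sham arrays in total RNA but not on polysomes.

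The rise of Mt1 and Mt2 was also seen on polysomes, 2.58-fold for bright Mt1 and 2.71-fold for Mt2. Neither Mt3 nor the dim Mt1 set was called there. Hence 2 of the 4 metallothionein probe sets were called higher on polysomes, against 11.8% of all probe sets.

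Mt2 read 13.08, 13.27 and 13.41 in injured polysome-bound RNA, against 11.79, 11.79 and 11.87 in sham polysome-bound RNA. All injured arrays were above all sham arrays, and the change was 1.44 (SE 0.07, interval 1.28 to 1.59, limma adjusted p = 4.3e-08), exceeded by 22 of 16555 probe sets. Bright Mt1 read 13.69, 13.93 and 13.97 in injured polysome-bound RNA, against 12.57, 12.61 and 12.30 in sham polysome-bound RNA. These did not overlap either, with a change of 1.37 (SE 0.09, interval 1.17 to 1.56, limma adjusted p = 2.32e-07) and 26 probe sets above it. The groups did not overlap for these 2 probe sets alone, against 46.1% of all probe sets, and a log2 rise of 1 or more was reached by 0.35% of probe sets (58).

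Mt3 gave no single answer on polysomes. It read 11.40, 11.34 and 12.51 in injured polysome-bound RNA, against 11.93, 12.02 and 11.74 in sham polysome-bound RNA. Injured replicates 1 and 2 were below every sham array and replicate 3 above every one. The difference was -0.14 (SE 0.23, interval -0.63 to 0.34, limma adjusted p = 0.657), and without injured polysome replicate 3 it was -0.52 (adjusted p = 0.00314). Replicates 1 and 2 are also the arrays of low weight. Their Gapdh 3′ minus 5′ differences were 2.90 and 2.54, against 3.06 on replicate 3, and the part of RNA integrity in the split was not tested.

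The dim Mt1 probe set read 6.55, 6.68 and 6.67 in injured polysome-bound RNA, against 6.48, 6.65 and 6.57 in sham polysome-bound RNA. The groups overlapped, and the change was 0.07 (interval -0.09 to 0.22, limma adjusted p = 0.497). On polysomes this set lay barely above the highest absent control, which stood at 6.40 to 6.49 on the injured and 6.42 to 6.53 on the sham arrays, so a change of its transcript there may not be measurable.

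The contrast of the inducible with the neural metallothioneins was measured within each array, as the log2 value of Mt1 or Mt2 minus that of Mt3. Only changes of this difference between groups are read, since levels of different probe sets are not comparable. In total RNA the Mt2 minus Mt3 difference was 1.57 ± 0.26 in injured and 0.49 ± 0.06 in sham cord (mean ± SD, n = 3 each), a change of 1.08. For bright Mt1 it was 2.04 ± 0.25 in injured and 1.27 ± 0.09 in sham total RNA, a change of 0.77. In both cases the groups did not overlap (exact two-sided permutation p = 0.1, the smallest that 3 against 3 allows).

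The same contrast was seen on polysomes, and whether it differed from that in total RNA was not tested. The Mt2 minus Mt3 difference ran from 0.90 to 1.93 in injured and from -0.23 to 0.14 in sham polysome-bound RNA, a mean change of 1.58, and that of bright Mt1 was 2.11 ± 0.59 in injured and 0.60 ± 0.03 in sham, a change of 1.51 (exact two-sided permutation p = 0.1 each, groups not overlapping). With the dim Mt1 set the change was 0.35 in total RNA (exact permutation p = 0.3) and 0.21 on polysomes (exact permutation p = 0.6). Over these 6 tests the adjusted p was 0.15 for each of the 4 contrasts with Mt2 or bright Mt1, so none passed, and 3 arrays against 3 cannot reach 0.05.

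**Figure D3:**
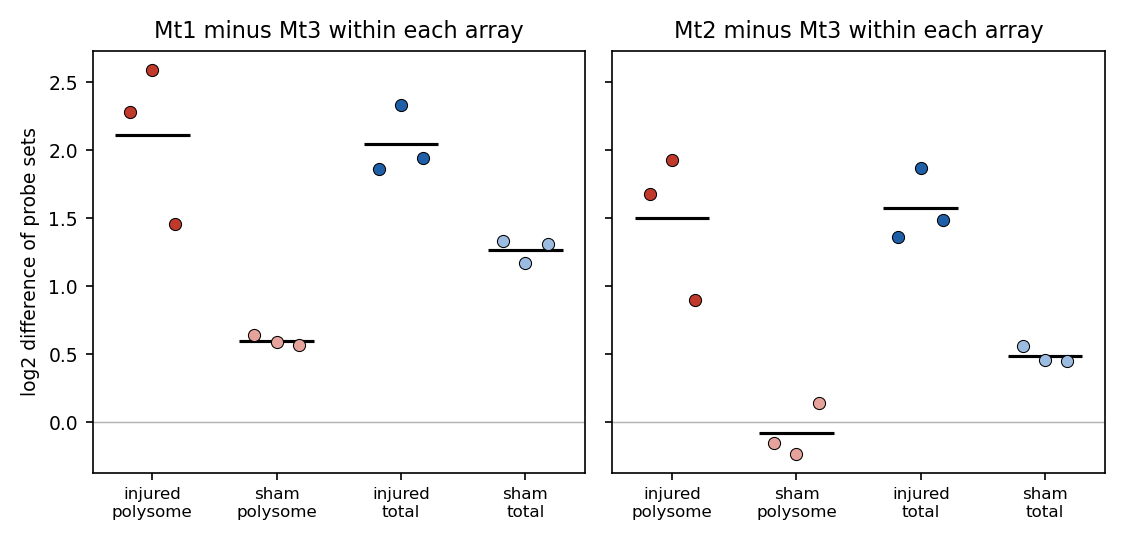
Log2 value of bright Mt1 (left) and Mt2 (right) minus that of Mt3 within each array, for 4 groups of 3 arrays, with group means as lines. The injured arrays lie above the sham arrays in both fractions, and injured polysome replicate 3, the array with high Mt3, is the lowest of its group.

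Whether the response differed between the fractions was tested by the interaction, the injury change on polysomes minus that in total RNA. The dim Mt1 set was the 1 of 4 metallothionein probe sets called lower, against 37% of all probe sets, at -0.89 (SE 0.10, limma adjusted p = 3.59e-05). For bright Mt1 the interaction was -0.02 (interval -0.29 to 0.26, adjusted p = 0.917), for Mt2 -0.25 (interval -0.47 to -0.03, adjusted p = 0.0518) and for Mt3 -0.75 (interval -1.44 to -0.07, adjusted p = 0.0631). The median over all probe sets was -0.14 and over the brightest 10% -0.32. The Mt1 value turned to 0.34 and was called after quantile normalization over 12 arrays (adjusted p = 0.0474). The Mt2 value was called without sham total replicate 1 (-0.30) or injured polysome replicate 3 (-0.33), and the Mt3 value without injured total replicate 2 (-0.89) or injured polysome replicate 3 (-1.13).

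Polysome-bound RNA was then set against total RNA within each operation. In injured cord 2 of the 4 metallothionein probe sets were called lower on polysomes, against 73.7% of all probe sets: the dim Mt1 set by -1.77 (SE 0.07, limma adjusted p = 2.87e-11) and Mt2 by -0.32 (SE 0.07, adjusted p = 0.000812). Bright Mt1 differed by -0.18 (adjusted p = 0.0722) and Mt3 by -0.25 (interval -0.73 to 0.24, adjusted p = 0.311; -0.63 and called without injured polysome replicate 3). Polysome and total arrays of injured cord did not overlap for both Mt1 sets and Mt2, as for 85.2% of all probe sets. In sham cord the dim Mt1 set alone was called lower, at -0.89 (SE 0.07, limma adjusted p = 3.45e-08), where 62.6% of all probe sets were. Bright Mt1 gave -0.16 (adjusted p = 0.107), Mt2 -0.07 (adjusted p = 0.411) and Mt3 0.50 (interval 0.02 to 0.99, adjusted p = 0.0525). With the replicate number as a fixed block Mt3 was called (0.50, limma adjusted p = 0.0452), making 2 probe sets called in place of 1, and with a random block it was not (adjusted p = 0.0542). Neither block is a paired test of sham cord alone, and the main fit left the arrays unpaired.

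These fraction differences are shifts against a median of -0.44 over all probe sets in injured cord and -0.35 in sham cord. Over the brightest 10%, where bright Mt1, Mt2 and Mt3 lie, the median was -0.07 in injured and 0.24 in sham cord. Less that median, bright Mt1 stood at -0.11 in injured and -0.41 in sham cord, and Mt2 at -0.25 and -0.31. Mt3 stood at -0.18 in injured and 0.26 in sham cord. Once arrays were centred on their median, bright Mt1 was 0.36 and Mt2 0.23 higher on polysomes in injured cord, and 0.19 and 0.29 higher in sham cord, so the direction for both genes rests on the scaling. Mt3 in sham cord was higher on polysomes as deposited, after quantile normalization (0.32, not called) and after centring (0.86, called), and its sham polysome arrays lay above its sham total arrays (groups did not overlap for 86.9% of all probe sets). The dim Mt1 set was lower under each of these scalings.

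**Figure D4:**
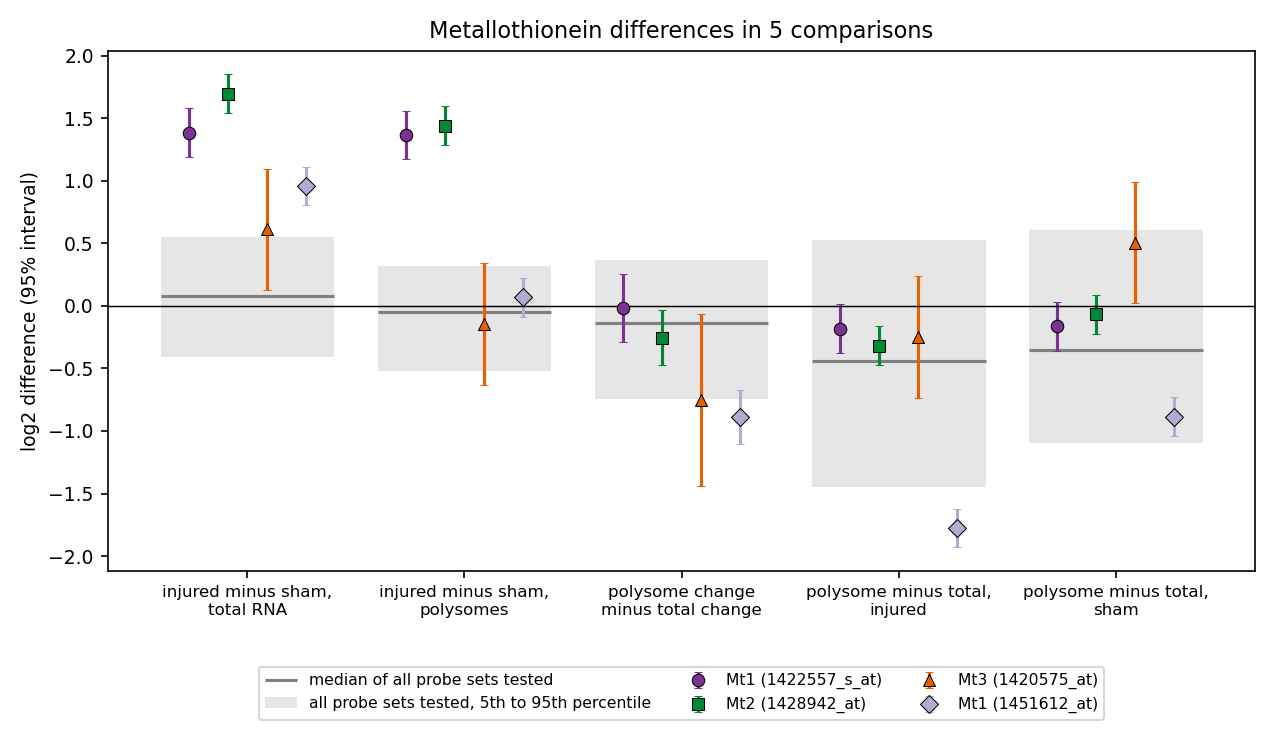
Log2 differences of the 4 metallothionein probe sets with 95% intervals in 5 comparisons; grey bars span the 5th to 95th percentile of all 16555 probe sets and grey lines their median. Bright Mt1 and Mt2 lie far above the grey bars for injury in both fractions, and within them for the fraction comparisons, where their direction turns once arrays are centred on their median.

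Ordered by group mean, bright Mt1 stood at 14.04 in injured total, 13.86 in injured polysome-bound, 12.66 in sham total and 12.50 in sham polysome-bound RNA, and Mt2 at 13.58, 13.26, 11.88 and 11.82 in the same order. For both genes the sham groups of the fractions overlapped, the injured groups of the fractions were close but did not, and the injured groups stood apart from the sham groups. Mt3 had another order, injured total highest, then sham polysome-bound (11.90), injured polysome-bound (11.75) and sham total RNA (11.39), and each of its groups overlapped the next. On values less the array median, Mt1 and Mt2 correlated at r = 0.99 over the 12 arrays, Mt1 and Mt3 at 0.41 and Mt2 and Mt3 at 0.41. The bright and dim Mt1 sets correlated at 0.29. These are descriptions over arrays that share groups and a fraction offset.

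The genes whose pattern over the 12 arrays was most like that of Mt1 were Rps18 (ribosomal protein, r = 0.99), the transcription factor genes Cebpd (0.99), Klf13 (0.98) and Klf9 (0.98), and Mt2 itself. For Mt2 they were Klf9 (0.99), Mt1, the small heat shock protein gene Hspb1 (0.99), the EGF receptor inhibitor gene Errfi1 (0.99) and the zinc finger gene Zfp871 (0.99). Those nearest to Mt3 were Srp9 (signal recognition particle, 0.96), the mitochondrial chaperonin gene Hspe1 (0.95), the PARP cofactor gene Hpf1 (0.93), the mitochondrial inner membrane gene Micos10 (0.93) and the RNA polymerase subunit gene Polr2f (0.93). The lists for Mt1 and Mt2 share Klf9 and each other, and none of their genes stands in the list for Mt3. All were picked by their pattern over these same arrays.

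On the zinc-sensing side of the pathway, the transcript of neither Mtf1 nor Slc30a1 was called in either fraction. The activity of the MTF1 protein was not measured. Mtf1, which encodes the metal-responsive transcription factor, read 7.98, 7.87 and 7.92 in injured and 8.01, 7.90 and 7.95 in sham total RNA. These groups overlapped, and the change was -0.03 (SE 0.07, limma adjusted p = 0.746). On polysomes the change was 0.18 (limma adjusted p = 0.0595), and the groups did not overlap, as for 46.1% of all probe sets. Mtf1 read 8.17, 7.91 and 7.89 in injured and 7.80, 7.77 and 7.87 in sham polysome-bound RNA. The highest value was that of replicate 1, the array of lowest weight. A second Mtf1 probe set gave -0.03 in total RNA and -0.04 on polysomes, neither called. Slc30a1, a zinc exporter gene that MTF1 is known to activate, gave -0.08 in total RNA (adjusted p = 0.29) and -0.11 on polysomes (adjusted p = 0.187). It lay near background, above every absent control on 3 of 3 injured total, 1 of 3 sham total, 0 of 3 injured polysome and 2 of 3 sham polysome arrays. Slc30a1 read 6.94, 7.02 and 6.85 in injured and 7.14, 6.95 and 6.95 in sham total RNA. The highest absent control there stood at 6.81 to 6.89 on injured and 7.03 to 7.04 on sham arrays, so these counts do not show a rise with injury. Mt4, the metallothionein gene of stratified epithelia, was above every absent control on 0 of 12 arrays.

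Among 16 zinc transporter genes tested, 10 were higher and 0 lower in injured total RNA (median 0.29), beside 41.8% higher and 17.9% lower over all genes, each read by its brightest probe set (median 0.12). The 0 lower rests on that reading. Slc39a6 rose by 0.37 on its brightest set but gave -0.46 on a second (limma adjusted p = 2.57e-05). Slc39a3 gave -0.11, not called, and -0.29 on a second (limma adjusted p = 0.00164). Slc39a14, a zinc importer gene induced by IL-6 in liver, rose by 1.52 (SE 0.10, limma adjusted p = 1.14e-07) in total RNA and by 0.59 on polysomes, while its second probe set gave -0.05 and 0.17. On polysomes 3 zinc transporter genes were higher and 2 lower, beside 13.5% and 24.9% of all genes. Slc39a1, a plasma membrane zinc importer gene, was 0.73 and 0.41 higher in total RNA and on polysomes, and Slc39a7, which releases zinc from the endoplasmic reticulum and Golgi, 0.51 and 0.21. After quantile normalization, an alternative chosen after seeing the data, 6 zinc transporter genes were higher and 2 lower in total RNA.

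Genes of the other known inducers were read from lists chosen with earlier results of these data known, against shares over all genes of 41.8% higher and 17.9% lower in total RNA and 13.5% higher and 24.9% lower on polysomes. All 13 glucocorticoid-induced genes were higher in injured total RNA (median 1.19) and 12 of 13 on polysomes (median 1.01), with Sult1a1, a sulfotransferase gene, at 1.72 and Plin4, a lipid droplet gene, at 2.69 in total RNA. All 14 STAT3-linked and acute phase genes were higher in total RNA (median 1.53) and 12 of 14 on polysomes (median 1.2), with Serpina3n, a protease inhibitor gene, at 2.97. Of 15 antioxidant genes 9 were higher and 0 lower in total RNA (median 0.31), and 1 was higher and 4 lower on polysomes (median -0.10), a count near the share over all genes, with the heme oxygenase gene Hmox1 the single rise in both (1.72 and 1.21). Of 16 genes for the receptors and factors upstream of metallothioneins, 10 were higher and 1 lower in total RNA (median 0.47) and 8 and 3 on polysomes. Osmr and Stat3 are counted both here and among the STAT3-linked genes, so these lists are not separate. After quantile normalization 4 antioxidant genes and 4 of these upstream genes were lower in total RNA. Stat3 was 1.19 higher in total RNA, whereas Nr3c1, the glucocorticoid receptor gene, gave -0.04 (limma adjusted p = 0.629) in total RNA and fell by 0.45 on polysomes.

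**Figure D5:**
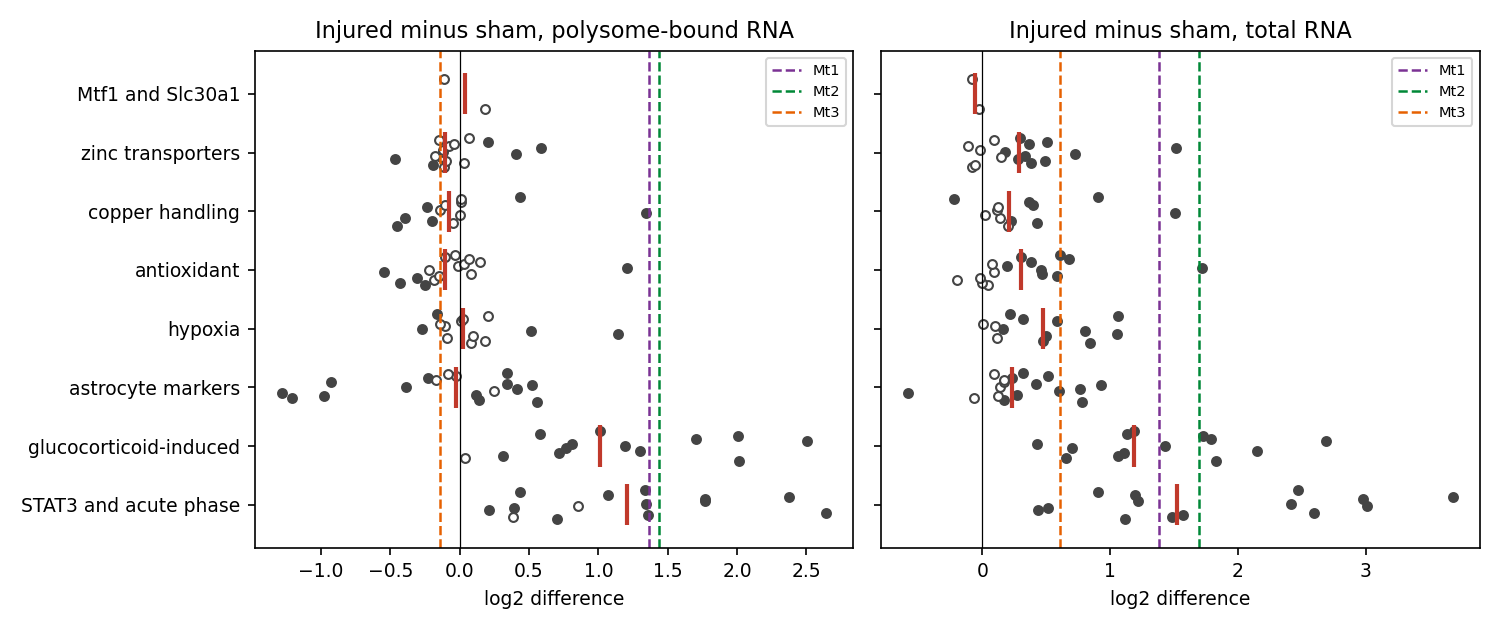
Injury changes (log2) of genes related to metallothionein regulation, on polysomes (left) and in total RNA (right); filled points passed limma adjusted p of 0.05, open points did not, and red bars are list medians. Dashed lines mark bright Mt1 (1.37 and 1.38), Mt2 (1.44 and 1.69) and Mt3 (-0.14 and 0.61); the list medians in total RNA are highest for the STAT3 (1.53) and glucocorticoid (1.19) lists, and Hmox1 of the antioxidant list (1.72) also reaches Mt1 and Mt2 there.

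Astrocytes are the usual source of Mt1 and Mt2, and their markers moved with injury in total RNA. Of 17 astrocyte markers 10 were higher and 1 lower there (median 0.24, against 0.12 over all genes, of which 41.8% were higher and 17.9% lower). Those of lowest p were Gfap at 0.76, Gjb6 at 0.93 and Aldh1l1 at 0.78, and the 1 lower was Fabp7 at -0.58. The log2 of the summed level of all 17 was 15.98 to 16.05 in injured against 15.68 to 15.77 in sham total RNA. Over the brightest 10% of probe sets the median change there was 0.27. On polysomes 7 were higher and 6 lower (median -0.03, beside 13.5% and 24.9% of all genes). The largest changes there were falls, of Fabp7 (-1.28) and Aqp4 (-1.21). The summed level there was 15.49 to 15.51 in injured against 15.47 to 15.50 in sham. Summed levels add unlogged values, so the brightest markers of a list weigh most in them. Monocyte and macrophage markers were higher for 9 of 11 in total RNA, with a summed level of 11.97 to 12.25 in injured against 11.18 to 11.34 in sham. On polysomes 6 of the 11 were higher and 2 lower. Of 13 measured, 10 lay above every absent control in injured and 7 in sham total RNA, and 5 and 7 on polysomes. The highest absent control stood lower on injured (6.81 to 6.89) than on sham total arrays (7.03 to 7.04), so the counts in total RNA do not share a bar. Of 11 neutrophil markers 5 were higher and 4 lower in total RNA, with a summed level of 12.14 to 12.80 in injured against 11.48 to 11.87 in sham. That sum is made chiefly by S100a8 and S100a9 (means of 11.02 and 10.95 in injured total RNA), which rose by 1.37 and 1.59. The 4 lower were Ngp (-0.64), Camp (-0.57), Ltf (-0.35) and Mpo (-0.28). Microglia markers were mostly lower, 5 of 8 with 1 higher in total RNA, and ependymal markers were lower for 3 of 4. Neuron (7 higher and 4 lower of 13), endothelial (4 and 2 of 11), oligodendrocyte (2 and 1 of 8) and skeletal muscle markers (1 and 1 of 7) moved in both directions there. The summed level in injured total RNA was nevertheless higher for neuron (16.01 to 16.07 against 15.83 to 15.91 in sham) and endothelial markers (12.83 to 12.87 against 12.30 to 12.51). It overlapped sham for oligodendrocyte and muscle markers and was lower for microglia and ependymal markers. The shares over all genes given above apply to each of these marker counts. The part of these cells in the metallothionein changes was not tested, and in whole cord more cells of a type and more RNA per cell cannot be told apart.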

How the data were processed

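Expression was measured on 12 Affymetrix arrays, 1 per sample. The deposited log2 values hold 1 value per probe set and array; the scale was read from their range, and the authors' background correction, normalization and summarisation are not given in the sources used here. Per the labels' protocols, the labelling reaction took 5 µg (total) or 3 µg (polysome-bound) of RNA. Values were used as deposited. Of 22690 probe sets, 20380 named 1 gene, 691 several and 1619 none (control probe sets counted among the last); 16555 with 1 gene passed the low-value filter (over the 25th percentile on 3 or more arrays) and were tested (10370 genes).

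Each probe set was fitted with limma 3.58.1 (statmod 1.5.0, R 4.3.3), with a mean per group (8 residual degrees of freedom) and variances moderated along an intensity trend. The p-values are two-sided, adjusted by Benjamini-Hochberg over all probe sets of each of 5 comparisons, threshold 0.05; errors of log2 changes are limma standard errors. Within-array differences were compared by exact permutation. Genes of lists are read by their brightest probe set. At most 3 of a list are named, those of lowest p in total RNA, plus genes of the zinc lists. Any other (Nr3c1, Fabp7, Aqp4 and further neutrophil markers) was chosen after its values were seen. On simulated data for injury in total RNA (16555 probe sets, 50 changed per size) 24% of log2 changes of 0.25, 94% of 0.5 and 100% of 1 were recovered. Far more probe sets change in the real data, where 37.4% were called higher in total RNA, and this makes the adjusted threshold less strict. The simulated shares therefore do not measure the sensitivity of the reported calls. Promoter windows and gene positions come from RefSeq tables of GRCm38.p6. Members and lists were chosen with earlier results of these data known. Precision is limited by how many arrays there are. The labels do not tie equal replicate numbers across fractions. Deviations of equal-numbered total and polysome arrays correlated at 0.14 to 0.19 in sham cord, where each pair exceeded 0.1, and at -0.09 to 0.06 in injured cord. Equal numbers may thus pair the samples in sham cord, but the main fit left all arrays unpaired. The fixed block fitted an effect per replicate number, shared by all arrays of that number. The random block grouped arrays by operation and number. Alternatives were other filters, scalings, moderation, 2 replicate blocks and leaving out each array.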

Additional observations from a re-analysis of the deposited data

Results flagged for a closer look

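The dim Mt1 probe set (1451612_at) changed differently with injury in the fractions. Its injury change on polysomes minus that in total RNA was -0.89 (limma interaction, adjusted p = 3.59e-05), with changes of 0.07 on polysomes and 0.96 in total RNA. The bright Mt1 probe set gave -0.02 for the same quantity. Over the alternatives the dim set stayed between -0.97 and -0.70 and was called each time. On polysomes it lay close to the absent controls, and the cause of the disagreement between the probe sets was not tested.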

How the results depend on the processing

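The injury rises of bright Mt1 and Mt2 were called under all 23 alternatives in both fractions (bright Mt1 1.11 to 1.43 in total RNA and 1.27 to 1.47 on polysomes; Mt2 1.44 to 1.74 and 1.36 to 1.55). Mt3 in total RNA was not called after quantile normalization over 12 arrays (0.34) or within fractions (0.35), and ranged from 0.51 to 0.75 when single arrays were left out. Leaving out single arrays gave Mt3 -0.52 to 0.063 on polysomes, -1.13 to -0.55 for the interaction, -0.63 to -0.043 for polysome against total in injured cord and 0.44 to 0.58 in sham cord. The sham value of Mt3 was called with no filter, with the spread of the compared groups alone and with the replicate number as a fixed block (0.50 each), with array weights (0.50) and after centring (0.86). Bright Mt1 turned to 0.34 for the interaction after quantile normalization, and after centring to 0.36 (injured) and 0.19 (sham) for polysome against total. Its injured value was called with the spread of the compared groups alone (-0.18; -0.24 to -0.10 without single arrays), and its sham value after quantile normalization (-0.24) and with array weights (-0.17; -0.25 to -0.069 without single arrays). Mt2 turned to 0.23 (injured) and 0.29 (sham) after centring, was called at -0.24 in sham cord after quantile normalization, and for the interaction at -0.25 with a filter at the array median (-0.33 to -0.17 without single arrays). The within-array change of dim Mt1 against Mt3 in total RNA moved to 0.67 after quantile normalization. The cause of these changes was not tested.

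The number of metallothionein probe sets called was 1 for the interaction (2 with the median filter or quantile normalization, 0 by the brightest probe set of each gene, 1 to 3 without single arrays). It was 2 for injured polysome against total (1 by the brightest; 2 to 4) and 1 for sham (0 by the brightest, 2 with no filter, with the spread of the compared groups or with the fixed replicate block, 3 with quantile normalization or array weights, 4 after centring; 1 to 2). The brightest probe set of each gene, which tests fewer features, called 6242 against 9892 in total RNA, 4054 against 6419 on polysomes, 5208 against 8368 for the interaction, 8950 against 14338 for injured and 8305 against 13434 for sham polysome against total; the median filter called 8543 in the last. The replicate number as a fixed or random block changed no other metallothionein call. The list counts were also recomputed by alternatives chosen after seeing the data. Signal near the absent controls limits the dim Mt1 set and Slc30a1.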

Other observations

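Copper handling genes, whose proteins share metal ions with metallothioneins, were higher for 6 and lower for 1 of 12 in injured total RNA (median 0.21), and 2 and 4 on polysomes (median -0.07). These counts were near the shares over all genes, 41.8% higher and 17.9% lower in total RNA and 13.5% and 24.9% on polysomes. In total RNA the multicopper ferroxidase gene Cp was 1.51 higher (SE 0.21, limma adjusted p = 5.31e-05) and the metalloreductase gene Steap4 0.91 higher (SE 0.10). On polysomes they were 1.34 and 0.44 higher. Steap4 is also counted among the STAT3-linked genes. Of 13 hypoxia-induced genes 10 were higher and 0 lower in total RNA (median 0.48). Among them were the vasodilator gene Adm at 0.84, the glucose transporter gene Slc2a1 (also counted as an endothelial marker) at 1.06 and the hexokinase gene Hk2 at 1.05. On polysomes 2 of the 13 were higher, among them Hk2 at 1.14, and 2 lower, and 6 and 1 after centring of arrays.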
